A study of Mus musculus with 12 samples.

Results

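The genes described here are 9 that are widely read as markers of epithelial-mesenchymal transition (EMT): the transcription factor genes Snai1, Snai2, Twist1, Zeb1 and Zeb2, the cadherin genes Cdh1 and Cdh2, the intermediate filament gene Vim and the calcium-binding protein gene S100a4. They were chosen by symbol with earlier results of these data known, as were the gene lists further below. All 9 were found among the 55487 gene rows of the deposited count table. RNA was measured by poly(A)-selected mRNA sequencing in MPC5, an immortalized mouse podocyte line, in 12 libraries. The vector group held 6 libraries of wild-type MPC5 cells that received an empty plasmid, and the SPARCoe group held 6 libraries of MPC5 cells that received a Sparc overexpression plasmid. Both groups were profiled 24 hours after transfection. The promoter of the plasmid and the share of cells that took it up were not given in the labels, and a single line stands for the cell type.

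EMT is the programme by which epithelial cells give up E-cadherin junctions and apical-basal polarity and take on a mesenchymal shape. SNAI1 and SNAI2 are zinc finger repressors, ZEB1 and ZEB2 are zinc finger and homeodomain repressors, and TWIST1 is a basic helix-loop-helix factor. All of these families bind E-box sequences, and the E-cadherin gene Cdh1 is their best known repressed target. Podocytes are unusual epithelial cells that normally carry vimentin filaments, and gain of mesenchymal markers in injured podocytes has been discussed as a route to podocyte loss.

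Total counts ran from 33051035 to 47296258 per vector library and from 34927871 to 47380987 per SPARCoe library. Sparc, the gene on the plasmid, was 13.5-fold higher in SPARCoe, at 751.1 ± 11.2 CPM (counts scaled to library size with TMM factors) in vector against 10119.7 ± 260.5 CPM (SD, n = 6 each). The defining podocyte genes were close to absent. Nphs1 (nephrin) had 0 counts in all vector libraries together and 53 in SPARCoe, and Wt1 had 37 and 20, while Synpo, Podxl and Kirrel were present. In bulk RNA, fewer cells of a type and less RNA per cell cannot be told apart. Whether libraries stand for separate cultures is not in the labels; every p-value below therefore reflects the spread among libraries, which may be technical.

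Promoter sequence is shown for Snai1 and Vim, the members that passed the test in opposite directions and for which the RefSeq promoter table (GRCm38.p6) held a window. Each window runs 5′ to 3′ from 250 bases before to 50 bases after the annotated start site. Capitals mark matches on either strand. The letters searched were CACCTG for an E-box, TATAAA for a TATA box, CCAAT for a CCAAT box, GGGCGG for a GC box and TGANTCA for an AP-1 site. The Snai1 window is on the plus strand at chr2:167537945-167538244, and the Vim window is on the plus strand at chr2:13574061-13574360.
Snai1: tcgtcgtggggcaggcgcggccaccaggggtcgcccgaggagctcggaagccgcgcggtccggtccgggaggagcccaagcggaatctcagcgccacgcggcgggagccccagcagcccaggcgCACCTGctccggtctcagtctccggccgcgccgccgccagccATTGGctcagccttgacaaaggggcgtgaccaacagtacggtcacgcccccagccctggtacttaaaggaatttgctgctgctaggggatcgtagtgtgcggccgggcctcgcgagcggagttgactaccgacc
Vim: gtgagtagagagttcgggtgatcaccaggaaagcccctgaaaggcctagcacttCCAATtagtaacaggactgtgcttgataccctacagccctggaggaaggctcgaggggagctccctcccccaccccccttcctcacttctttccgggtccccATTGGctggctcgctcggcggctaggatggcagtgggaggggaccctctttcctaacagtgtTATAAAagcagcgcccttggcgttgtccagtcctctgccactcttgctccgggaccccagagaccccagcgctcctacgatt
The Snai1 window held an E-box whose first base lies at position -126 from the start site and a CCAAT box on the opposite strand at -84. The Vim window held a TATA box at -32 and CCAAT boxes at -196 and -94, and no CACCTG in either orientation. An E-box of these letters occurred in 20.2% of the 32851 mouse promoter windows, a TATA box in 13.6% and a CCAAT box in 37.4%. Of the 5 members with an entry in that table, Snai1 was the one whose window or windows held the E-box letters. The other 4 were Twist1, Zeb2, Vim and S100a4. No binding was measured, so these matches describe the sequence only.

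In vector libraries, Vim and Cdh2 were abundant, the transcription factors and S100a4 were lower and Cdh1 was close to silent. Levels of different genes were compared per length with the deposited FPKM values (counts scaled to gene length and library total), given here as mean ± SD over 6 libraries. Vim, which encodes vimentin, was at 1569 ± 47.8 FPKM and ranked between 22 and 34 among all genes in the 12 libraries. Cdh2, which encodes N-cadherin, was at 202.6 ± 3.62 FPKM. Among the transcription factors, Zeb1 was at 22.1 ± 0.962, Zeb2 at 17.9 ± 1.57, Twist1 at 8.62 ± 0.274, Snai2 at 6.98 ± 0.689 and Snai1 at 2.73 ± 0.321 FPKM. S100a4 was at 3.70 ± 0.591 FPKM, and Cdh1, which encodes E-cadherin, was at 0.0200 ± 0.0186 FPKM. Neighbours in this order did not overlap between vector libraries, except S100a4 (2.94 to 4.46 FPKM) and Snai1 (2.39 to 3.30 FPKM), which did.

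The order of the transcription factors depended on the gene length used. The deposited FPKM values imply lengths of 1736 bases for Zeb1 and 2131 bases for Zeb2, while their merged exons in GENCODE M21 (GRCm38) span 10266 and 19942 bases and their longest transcripts 5801 and 9124 bases. For Snai1 (1621 bases), Snai2 (2021) and Twist1 (1628) the lengths were identical in both. Per kilobase of merged exons, Zeb1 came to 3.74 ± 0.163 FPKM and Zeb2 to 1.91 ± 0.168 FPKM (SD, n = 6), below Twist1 and Snai2. By merged exons, which are longer than the longest Zeb2 transcript, Zeb2 was the lowest of the 5 factors in vector. The order by longest transcript was not computed. Vim (492.7 FPKM) and Cdh2 (100.3 FPKM) remained the most abundant members and Cdh1 (0.0123 FPKM) the least. For Vim the deposited values imply 1489 bases against 4743 in merged exons, and its rank among all genes by merged exons was not computed.

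**Figure D1:**
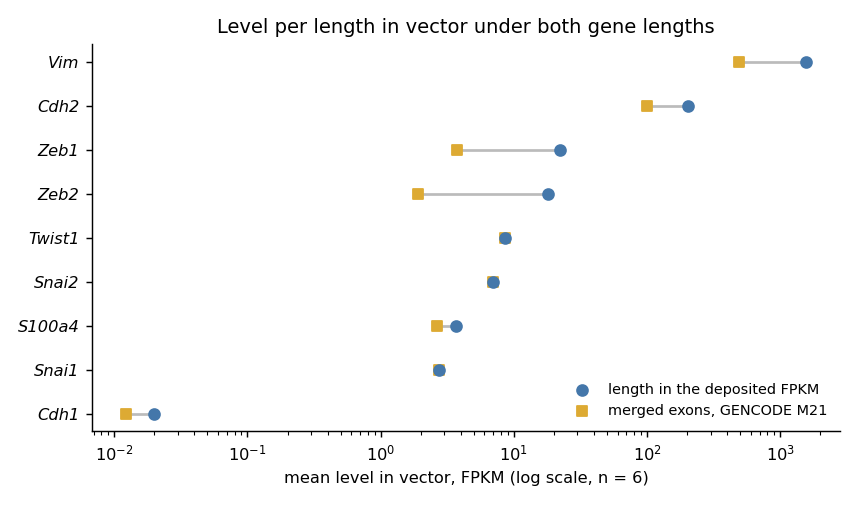
Mean level of each of the 9 genes in the 6 vector libraries, in FPKM on a log axis, with the length implied by the deposited values (circles) and with merged exon length from GENCODE M21 (squares). Zeb1 and Zeb2 fall from 22.1 and 17.9 to 3.74 and 1.91 FPKM, Snai1, Snai2 and Twist1 stay in place, and Cdh1 is the lowest under both lengths.

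SPARCoe was compared with vector to ask whether excess Sparc goes with a shift in these genes. Of the 9 members, 8 were abundant enough for edgeR's quasi-likelihood test and Cdh1 was not. Snai1 rose, Cdh2 and Vim fell, and Snai2, Twist1, Zeb1, Zeb2 and S100a4 did not pass at a Benjamini-Hochberg adjusted p under 0.05 over all genes. Among all 15734 tested genes 29.1% passed, 14.9% upward and 14.1% downward, so 3 of 8 members is near the background. The median log2 fold change was -0.06 over the 8 members and -0.0033 over all tested genes.

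**Figure D2:**
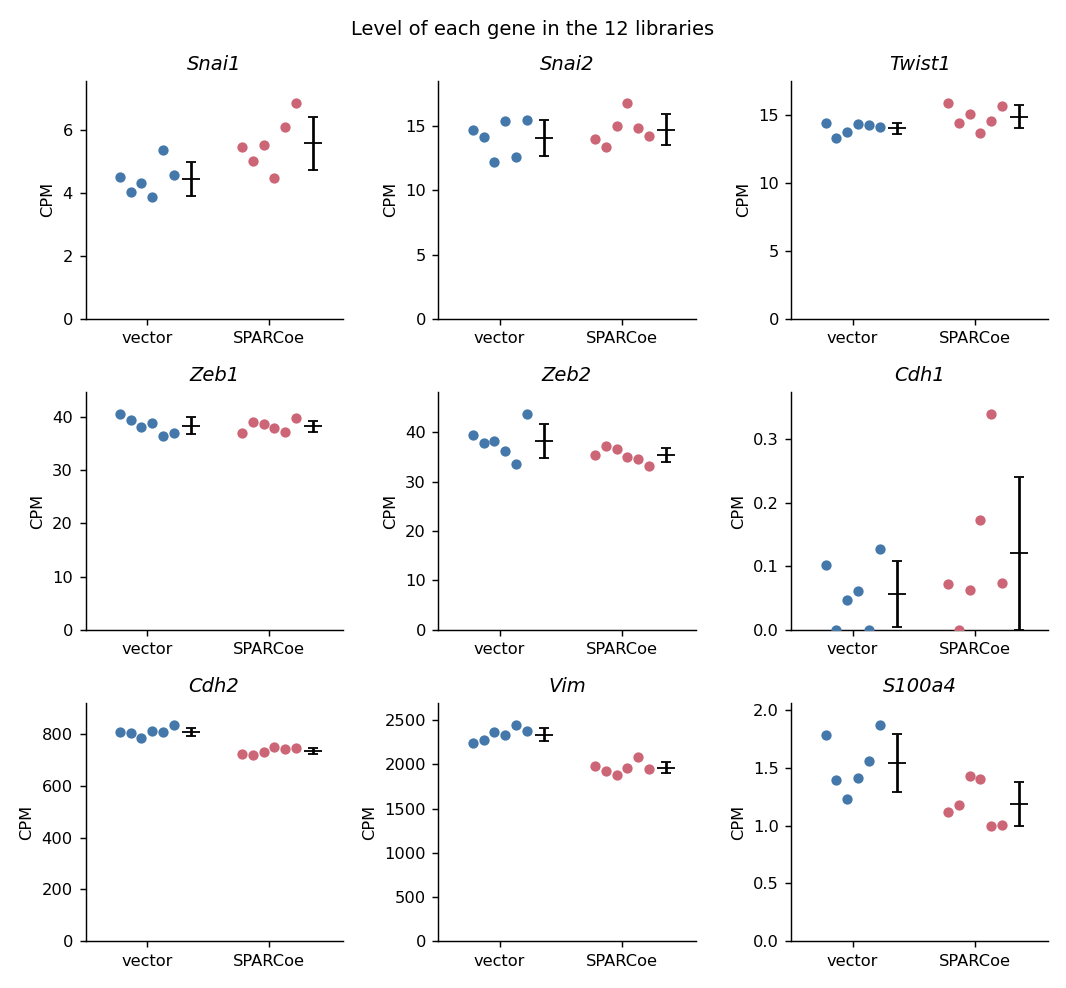
Level of each of the 9 genes in CPM (y axis, from 0) in the 6 vector (blue) and 6 SPARCoe (red) libraries, with the mean and SD of each group in black. The groups are apart for Cdh2 and Vim and overlap for the other 7 genes.

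Snai1 was the member that rose. It is on chromosome 2 from 167538195 to 167542814 on the plus strand (GENCODE M21, GRCm38) and encodes the repressor SNAIL. Vector libraries ran from 3.86 CPM over a median of 4.40 to 5.36 CPM, and SPARCoe libraries from 4.48 over 5.49 to 6.87 CPM. Among tested genes in general the groups did not overlap in 15.6%, with SPARCoe higher in 8.57%. The Snai1 groups did overlap, with 4 of 6 SPARCoe libraries above the highest vector library and all 6 above the vector median. This amounted to 1.26-fold, or 0.33 ± 0.10 as log2 fold change (SE; 95% interval 0.12 to 0.54; edgeR adjusted p = 0.0123). SPARCoe replicate 6 was the highest library, and without it the adjusted p was 0.0618 (0.00388 to 0.0772 over all alternatives). It also missed the threshold in limma on log2(FPKM + 1) fitted to every gene with a value (adjusted p = 0.0772). The gene was read at 128 to 287 counts per library.

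Snai2 and Twist1 were near their vector levels. Snai2, which encodes SLUG, ran from 12.2 over a median of 14.4 to 15.5 CPM in vector and from 13.4 over 14.6 to 16.9 CPM in SPARCoe, and the groups overlapped (log2 fold change 0.07, 95% interval -0.07 to 0.20, edgeR adjusted p = 0.511). Twist1 ran from 13.3 over 14.2 to 14.4 CPM in vector and from 13.7 over 14.8 to 15.9 CPM in SPARCoe. For Twist1, 5 of 6 SPARCoe libraries lay above the highest vector library, by little, and the gene did not pass (log2 fold change 0.09, 95% interval -0.03 to 0.20, edgeR adjusted p = 0.281). The intervals leave room for a rise of up to 1.15-fold in either gene.

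The ZEB genes did not pass either. Zeb1 ran from 36.4 over a median of 38.5 to 40.6 CPM in vector and from 37.1 over 38.3 to 39.8 CPM in SPARCoe. Its SPARCoe libraries all fell within the vector range, and its log2 fold change of -0.0048 had a 95% interval of -0.08 to 0.07 (edgeR adjusted p = 0.949). Its sign turned in 5 of 22 alternatives. Zeb2 ran from 33.5 over 38.1 to 43.8 CPM in vector and from 33.2 over 35.2 to 37.3 CPM in SPARCoe. All 6 SPARCoe libraries lay below the vector median of Zeb2, and 4 of 6 vector libraries lay above every SPARCoe library. Vector replicates 4 and 5, at 36.3 and 33.5 CPM, lay within the SPARCoe range. Zeb2 had a log2 fold change of -0.11 ± 0.05 (SE; 95% interval -0.20 to -0.02; edgeR adjusted p = 0.0604), just short of the threshold. It passed without vector replicate 5 (adjusted p = 0.00972), without vector replicate 4 (0.0467), without SPARCoe replicate 2 (0.0434) and with no filter on low counts (0.0202), and over all alternatives the adjusted p ran from 0.00972 to 0.294. Zeb2 overlaps the antisense gene Zeb2os, which had 18 counts in each group, and Zeb1 overlaps Gm10125 on the other strand, with 30 counts in vector and 44 in SPARCoe.

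**Figure D3:**
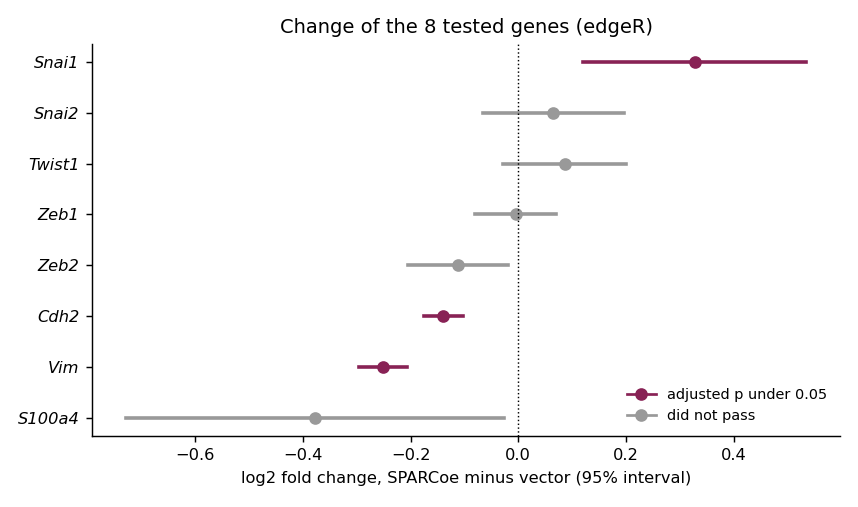
Log2 fold change of the 8 tested members, SPARCoe minus vector (x axis), as a point with its 95% interval from the edgeR fit, coloured by whether the adjusted p was under 0.05. Snai1 (0.33) is to the right of 0, Cdh2 (-0.14) and Vim (-0.25) are to the left with narrow intervals, and S100a4 (-0.38) has the widest interval.

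N-cadherin fell and E-cadherin stayed close to the detection limit. Cdh2, on the minus strand of chromosome 18 between 16588877 and 16809246 (GRCm38), encodes the classical cadherin of mesenchymal and neural cells, and ran from 786.8 over a median of 808.7 to 836.2 CPM in vector and from 718.8 over 736.5 to 750.1 CPM in SPARCoe. All 6 SPARCoe libraries lay below all vector libraries. Cdh2 thus fell to 0.908 of its vector level, at -0.14 ± 0.02 on the log2 scale (SE; edgeR adjusted p = 2.25e-08), and all 22 alternatives kept the call. SPARCoe was the lower of non-overlapping groups in 7.04% of all tested genes, in 18.5% of those averaging 100 CPM or more and in 25.3% of those averaging 500 CPM or more, the classes that Cdh2 and Vim belong to.

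Cdh1, on chromosome 8 from 106603351 to 106670246 on the plus strand (GRCm38), was read 14 times over all vector libraries and 32 times over all SPARCoe libraries. Single vector libraries held 4, 0, 2, 2, 0 and 6 counts and single SPARCoe libraries 3, 0, 3, 7, 16 and 3. Of the 12 libraries, 8 were at or under the floor of 3 counts, and 16 of the 32 counts came from SPARCoe replicate 5. The ratio of SPARCoe to vector was 2.20 with a 95% exact counting interval of 1.14 to 4.47, and 1.36 (0.62 to 3.0) without that library. Counting intervals do not cover the spread between libraries, and permuting log2 CPM over all 924 splits (exact, two-sided) gave p = 0.31. With no filter on low counts, edgeR gave an adjusted p of 0.328. A change of Cdh1 was thus not detectable at this depth.

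Per length, Cdh2 exceeded Cdh1 by a factor of 10152 in vector (95% counting interval 6050 to 18570) and of 4317 in SPARCoe (3058 to 6311), both from deposited FPKM means. Without SPARCoe replicate 5 the log2 ratio in SPARCoe was 12.73 in place of 12.08, beside 13.31 in vector. The lower factor in SPARCoe thus rests in large part on the Cdh1 counts of a single library.

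Vimentin fell most clearly. Vim, on chromosome 2 from 13573927 to 13582826 on the plus strand (GRCm38), encodes the main intermediate filament protein of mesenchymal cells and of podocytes. Vector libraries ran from 2240 over a median of 2349 to 2448 CPM and SPARCoe libraries from 1885 over 1954 to 2087 CPM, with no overlap. Vim thus fell to 0.840 of its vector level, at -0.25 ± 0.02 on the log2 scale (SE; edgeR adjusted p = 2.14e-10), and all 22 alternatives kept the call. For Vim and for Cdh2 the exact permutation p (two-sided) was 0.00216, the smallest value that 6 against 6 libraries allow. Abundant genes leaned downward as a class: 2503 tested genes averaged 100 CPM or more, and 46.1% of them passed, 30.2% lower and 15.9% higher. In that class 54 genes had a lower fold change than Vim (2.16%) and 216 a lower one than Cdh2 (8.63%). Of the 273 tested genes averaging 500 CPM or more, 37.7% passed lower and 9.89% higher. There, 6 genes had a lower fold change than Vim and 33 a lower one than Cdh2.

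S100a4 was scarce and did not pass. It is on chromosome 3 from 90603771 to 90606045 on the plus strand (GRCm38) and encodes a calcium-binding protein, also called fibroblast-specific protein, that binds non-muscle myosin. In GENCODE M21 it overlaps the protein-coding gene Gm42674 on the same strand, which had 0 counts in both groups. Whether reads shared by both genes went uncounted was not tested. Vector libraries ran from 1.23 over a median of 1.49 to 1.87 CPM and SPARCoe libraries from 0.998 over 1.15 to 1.43 CPM. All 6 SPARCoe libraries lay below the vector median and 4 below the lowest vector library. S100a4 had a log2 fold change of -0.38 ± 0.17 (SE; 95% interval -0.73 to -0.03; edgeR adjusted p = 0.101), from 41 to 88 counts per library. With genes averaging 1 FPKM or more, limma on log2(FPKM + 1) and on log2(FPKM + 0.1) gave adjusted p of 0.0244 and 0.0247 (0.0244 to 0.229 over all alternatives).

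**Figure D4:**
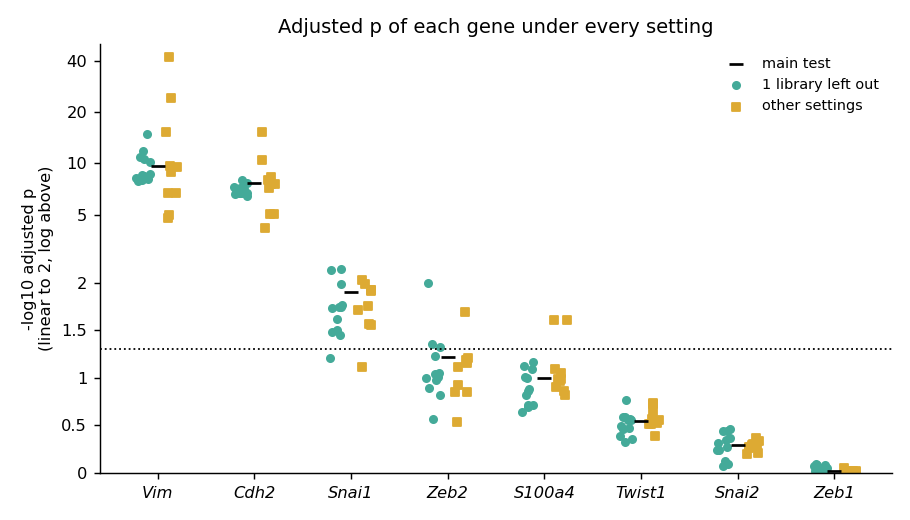
Adjusted p of the 8 tested members as -log10 (y axis, linear to 2 and logarithmic above; the dotted line is 0.05) in the main test (black bar), with 1 library left out (green circles) and under the other settings (yellow squares). Vim and Cdh2 stay above the line in every setting, Snai1, Zeb2 and S100a4 lie around it, and Twist1, Snai2 and Zeb1 stay below.

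Markers of other cell types moved beside these genes, while 14.9% of all tested genes were higher and 14.1% lower. All 4 tested of 8 tubule markers were lower. The 8 together summed to 484.2 to 505.9 CPM in vector and 355.8 to 373.9 CPM in SPARCoe. The 4 not tested did not share this fall. Slc34a1 had 2 counts in all vector libraries together and 74 in SPARCoe. Slc12a1 had 53 and 53 and Aqp2 35 and 44, with Umod at 0 counts in every library. The 10 fibroblast markers summed to 45.99 to 53.4 CPM in vector and 39.2 to 43.5 CPM in SPARCoe. Of 6 tested, 2 were lower and 1 higher, and Lum and Dpt were at 0. Most of that sum was Col1a1 (means of 29.1 CPM in vector and 25.7 in SPARCoe) and Pdgfrb (18.7 and 14.1). Fap, the marker that was higher, averaged 0.137 and 0.381 CPM. The 9 leukocyte markers summed to 17.9 to 22.2 CPM in vector and 19.0 to 20.9 CPM in SPARCoe, with 1 of 3 tested lower (Csf1r) and 1 higher (Cd14). The 7 endothelial markers summed to 41.5 to 45.6 CPM in vector and 31.1 to 34.8 CPM in SPARCoe, with 2 of 4 tested lower, 1 higher and Emcn at 0. Most of that sum was Flt1 alone, with means of 41.3 CPM in vector and 30.4 in SPARCoe. Tek, the marker that was higher, averaged 0.160 and 0.514 CPM, and Cdh5 (0.169 and 0.348 CPM) did not pass. Fap and Tek reached the count filter mainly through their SPARCoe libraries, while Pecam1 (0.166 and 0.167 CPM), at a like vector level, was not tested. Of the endothelial markers, Kdr (edgeR adjusted p = 0.0358), lost its call without vector replicate 2, 5 or 6 or SPARCoe replicate 1, 4 or 5 (adjusted p from 0.062 to 0.093). Of 8 podocyte markers, 5 were tested, 2 of them higher and 2 lower, with sums of 871.1 to 897.0 CPM in vector and 789.8 to 818.4 CPM in SPARCoe. Their part in the falls of Vim and Cdh2 was not tested.

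Of 16 other transcription factors linked to EMT that were found in the table, 13 were tested, with a median log2 fold change of 0.14. Of these 5 rose and 2 fell (38.5% and 15.4%, beside 14.9% and 14.1% of all tested genes). Hmga2, an architectural chromatin factor, was at 161.5 ± 7.13 CPM in vector and rose to 230.0 ± 1.95 (SD, n = 6), by 0.51 on the log2 scale (edgeR adjusted p = 9.72e-22). Fosl1, the AP-1 subunit FRA1, rose from 28.6 ± 1.28 to 41.0 ± 3.41 CPM and Sox9, an SRY-related factor, from 5.53 ± 1.03 to 8.59 ± 0.729 CPM. Foxc1, a forkhead factor, fell from 12.9 ± 0.437 to 9.16 ± 0.636 CPM. Snai3, the third SNAI family gene, rose from 0.696 ± 0.152 to 1.5 ± 0.36 CPM (edgeR adjusted p = 3.3e-05) and was named after its value was seen. Prrx1 and Gsc had 0 counts.

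Beside the 29.1% of all tested genes that passed, 2 of 16 corepressor genes and 5 of 13 genes that set SNAI1 protein stability did. The 2 corepressor genes were both lower: Ajuba, a LIM protein that bridges SNAI1 to its corepressors (312.2 ± 6.27 to 281.4 ± 3.32 CPM), and Ezh2, a histone methyltransferase (112.5 ± 4.82 to 106.2 ± 1.02 CPM). The ZEB corepressor genes Ctbp1 and Ctbp2 had log2 fold changes of 0.02 and 0.0078 and did not pass (both named after their values were seen). Of the SNAI1 stability genes, 2 rose and 3 fell. Gsk3b, the kinase that marks SNAI1 for degradation, was at 106.7 ± 4.65 CPM in vector and 99.9 ± 4.25 in SPARCoe (SD, n = 6), a fall (edgeR adjusted p = 0.0112). Fbxo45, an F-box protein, rose from 35.5 ± 1.42 to 39.3 ± 1.49 CPM, while Fbxl5, an SNAI1 ubiquitin ligase subunit, and Cops2, a COP9 signalosome subunit, were lower by log2 fold changes of -0.07 and -0.06. Single libraries decided several of these calls: Ezh2 had an adjusted p of 0.063 without vector replicate 2, Gsk3b 0.0526 without SPARCoe replicate 3, Fbxl5 0.0602 without vector replicate 4 and Cops2 0.0826 without vector replicate 2. Fbxl5 also lost its call without vector replicate 1 (0.0558), and Cops2 without vector replicate 1 (0.072) or 6 (0.0521) or SPARCoe replicate 5 (0.0608).

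**Figure D5:**
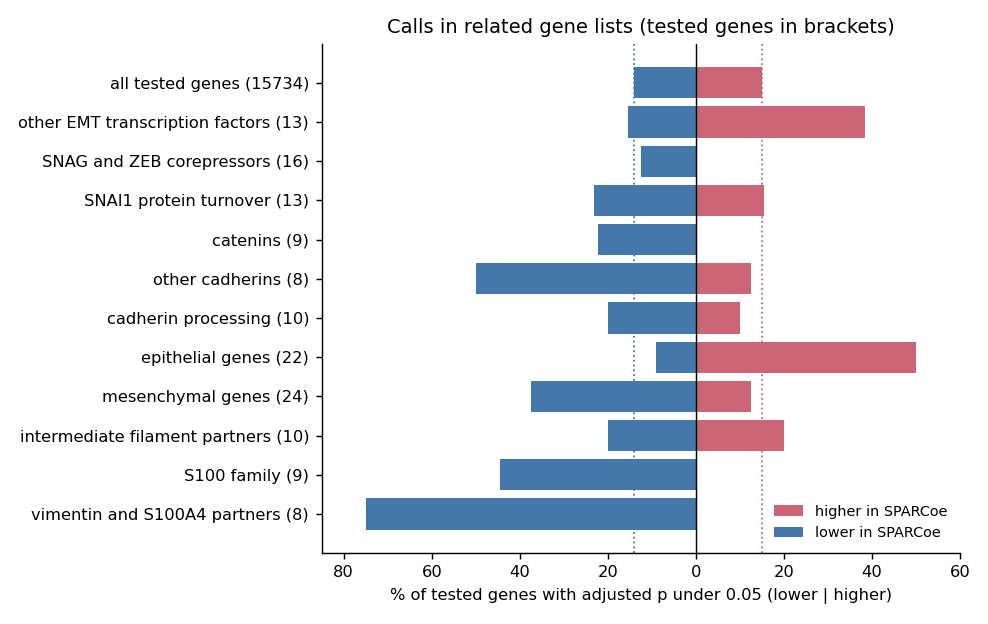
Share of the tested genes of each related list that passed upward (right, red) or downward (left, blue), with the number tested in brackets and the shares of all tested genes as dotted lines (14.9% and 14.1%). Epithelial genes and other EMT factors extend furthest to the right, and the vimentin and S100A4 partners and other cadherins furthest to the left.

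Of 13 cadherins other than the members, 8 were tested, 4 fell, 1 rose and 3 did not pass, with a median log2 fold change of -0.07. The falls were 50% and the rise 12.5% of those tested, beside 14.1% and 14.9% of all tested genes. Among tested genes averaging 100 CPM or more, Cdh3 and Cdh16 included, 30.2% were lower and 15.9% higher. Cdh16, the kidney-specific cadherin of tubule epithelium, was at 129.1 ± 7.73 deposited FPKM in vector and 110.1 ± 8.90 in SPARCoe (SD, n = 6). This fall was -0.23 ± 0.05 on the log2 scale (SE, edgeR adjusted p = 0.00691). Cdh3, the P-cadherin of epithelia and of podocytes, fell from 151.0 ± 4.39 to 138.7 ± 2.98 CPM, and Cdh6, a cadherin of the developing nephron, from 25.4 ± 4.77 to 14.95 ± 2.18 CPM. Cdh11, a mesenchymal cadherin, rose from 48.0 ± 1.32 to 55.6 ± 1.53 CPM (edgeR adjusted p = 9.5e-07).

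Of 9 tested catenin and linker genes, 2 passed, both lower (22.2%, beside 14.1% of all tested genes). Jup (plakoglobin) fell from 89.8 ± 4.50 to 79.0 ± 3.36 CPM and Vcl (vinculin) from 500.1 ± 10.2 to 441.9 ± 7.84 CPM (SD, n = 6). Ctnnb1 (beta-catenin) and Ctnna1 (alpha-catenin) had log2 fold changes of 0.02 and -0.03 and did not pass. Both were named after their values were seen. Of 10 genes that cleave or turn over cadherins, 1 rose and 2 fell (10% and 20%, beside 14.9% and 14.1% of all tested genes). Among tested genes averaging 100 CPM or more, Vcl, Adam15 and Aph1a included, 30.2% were lower and 15.9% higher. Adam15, a disintegrin protease, and Aph1a, a gamma-secretase subunit, had log2 fold changes of -0.10 and -0.09, and Pcsk6, a proprotein convertase gene, rose from 0.609 ± 0.203 to 0.976 ± 0.243 CPM. Pcsk6 lost its call without vector replicate 1 (adjusted p = 0.0791), vector replicate 3 (0.0931) or SPARCoe replicate 5 (0.131), and Adam15 without vector replicate 3 (0.0655) or SPARCoe replicate 1 (0.051) or 3 (0.053).

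Of 36 epithelial genes, 22 were tested, 11 rose and 2 fell (50% and 9.09%, beside 14.9% and 14.1% of all tested genes), with a median log2 fold change of 0.12. The rises include Ovol1 (0.137 to 0.37 CPM) and Map7 (0.209 to 0.705 CPM), which reached the count filter mainly through their SPARCoe libraries. Rab25 (0.201 to 0.258 CPM) and Krt19 (0.254 to 0.232 CPM), at like vector levels, were not tested. The 50% thus counts genes that could hardly have been tested without a rise. Tjp3, a tight junction scaffold gene, was scarce and rose from 1.40 ± 0.223 CPM in vector to 3.87 ± 0.414 in SPARCoe (SD, n = 6), with an edgeR adjusted p of 2.86e-12. Esrp2, an epithelial splicing regulator, rose from 5.27 ± 0.461 to 7.68 ± 0.805 CPM, and Elf3, an epithelial ETS factor, from 6.10 ± 0.817 to 8.55 ± 0.566 CPM. Llgl2, a polarity gene, fell from 145.1 ± 4.17 to 122.4 ± 5.47 CPM. Among genes named after their values were seen, Ocln (occludin) rose from 0.418 ± 0.106 to 0.977 ± 0.134 CPM and Cgn (cingulin) from 98.3 ± 3.34 to 109.4 ± 3.26 CPM, while Cldn1 (claudin) fell from 66.9 ± 2.88 to 61.3 ± 1.93 CPM. Epcam and Krt8, also named after the fact, averaged 0.463 and 0.585 CPM in vector and 0.444 and 0.487 CPM in SPARCoe and did not pass, and the 14 members not tested had means of 0.243 CPM or less.

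Of 26 mesenchymal genes, 24 were tested, 9 fell and 3 rose, with a median log2 fold change of -0.06. These were 37.5% and 12.5% of those tested, beside 14.1% and 14.9% of all tested genes. Among tested genes averaging 100 CPM or more, Fn1 and Loxl2 included, 30.2% were lower and 15.9% higher. Fn1 (fibronectin), the most abundant, was at 3260 ± 51.2 CPM in vector and fell to 2885 ± 90.4 (SD, n = 6), a log2 fold change of -0.18 with an edgeR adjusted p of 2.3e-11. The smooth muscle actin gene Acta2 went down from 83.7 ± 2.02 to 52.8 ± 2.23 CPM, Postn (periostin) from 7.83 ± 0.993 to 4.35 ± 0.174 CPM and Loxl2, a collagen cross-linking enzyme, from 157.7 ± 6.93 to 122.7 ± 3.73 CPM. Those that rose were Cdh11, Tnc (tenascin C, 238.0 ± 5.06 to 255.0 ± 7.97 CPM) and Ddr2 (a collagen receptor, 3.89 ± 1.09 to 5.99 ± 0.576 CPM), the last pair named after their values were seen.

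Of 10 tested intermediate filament and linker genes, 2 rose and 2 fell (20% and 20%, beside 14.9% and 14.1% of all tested genes). Among tested genes averaging 500 CPM or more, Nes and Lmna included, 37.7% were lower and 9.89% higher. Nes, the nestin filament gene of podocytes, fell from 1199 ± 23.9 to 1055 ± 18.4 CPM and Lmna (lamin A/C) from 731.6 ± 28.2 to 678.5 ± 21.1 CPM. Synm (synemin), which assembles with vimentin, rose from 3.08 ± 0.186 to 6.25 ± 0.476 CPM and Gfap from 0.311 ± 0.0814 to 0.962 ± 0.246 CPM. Of 9 tested genes of the S100 family list, 4 passed, all lower (44.4%, beside 14.1% of all tested genes). S100a11 was the most abundant of those that fell (683.7 ± 16.2 to 619.0 ± 17.9 CPM), followed by S100a16 and S100pbp, which encodes an S100P-binding protein. In the class averaging 500 CPM or more, which holds S100a11, 37.7% were lower. The fourth, S100a14, had 109 counts in vector and 60 in SPARCoe, and passed with an edgeR adjusted p of 0.0396 (0.0191 to 0.151 over its alternatives). It lost the call in 11 of 19 alternatives: without vector replicate 2, 4 or 6 or SPARCoe replicate 1, 3, 4 or 6 (adjusted p from 0.0693 to 0.151), with the replicate block (0.067), with DESeq2 (0.0671), with no filter (0.0701) and with limma on every gene with a value (0.103).

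Among partners of S100A4 and cortex linkers, 6 of 8 tested passed, all lower (75%), with a median log2 fold change of -0.08. Of all tested genes 29.1% passed and 14.1% were lower. Myh9, Myh10, Anxa2, Trp53, Ezr, Msn and Rdx averaged 100 CPM or more, a class in which 46.1% passed and 30.2% were lower. Myh9, the non-muscle myosin heavy chain that S100A4 binds, was at 2369 ± 33.9 CPM in vector and fell to 2009 ± 40.5 (SD, n = 6), by 0.24 on the log2 scale (edgeR adjusted p = 2.91e-16). Myl9, a myosin light chain, fell from 5.83 ± 0.716 to 2.92 ± 0.566 CPM. Myh10 and the actin linker gene Msn (moesin) had log2 fold changes of -0.09 and -0.08 and passed.

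The tested genes whose log2 CPM followed the members that passed most closely over the 12 libraries were looked up among 8734 named genes with a mean of at least 10 CPM. Vim was most like Cbx6 (Pearson r = 0.987) and Kif1c (r = 0.983), which fell by 0.17 and 0.14 on the log2 scale. Cdh2 was most like Atrnl1 (r = 0.991), which fell from 117.4 ± 2.85 to 97.97 ± 3.25 CPM (SD, n = 6), and Spg20 (r = 0.966). Snai1 was most like Kremen1 (r = 0.903) and Tsku (r = 0.899). These values are a description over 12 libraries that share the difference between the groups, and carry no p.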

How the data were processed

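The authors deposited read counts and FPKM values per Ensembl gene for 12 libraries. Per the submitters' processing notes, Bowtie2, HISAT2, featureCounts, SAMtools, Picard and edgeR were used; version, role, build, annotation and strand setting were all not given in the sources used here. Deposited counts were taken unchanged. Dividing counts by library total and deposited FPKM gave a whole, constant gene length (within 0.001) for all 31742 genes with a value. Symbols matched 55141 of 55487 IDs. The labels name no molecular identifiers, so intervals and the floor of 3 counts (0.0633 to 0.0908 CPM per library) cover counting error only, and reads of antisense partners cannot be told apart. Positions are from GENCODE M21 (GRCm38), not the authors'.

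The main test was edgeR 4.0.16 (R 4.3.3) with TMM factors, filterByExpr (15734 genes) and a robust quasi-likelihood fit of SPARCoe against vector on all 12 libraries, two-sided, with a Benjamini-Hochberg adjusted p under 0.05 over all tested genes. Log2 CPM used a prior count of 2. Alternatives were RLE factors, Sparc left out, no filter, at least 1 CPM in 6 libraries, DESeq2 1.42.0, limma-voom (limma 3.58.1), a replicate block, limma trend on log2(FPKM + 1) or log2(FPKM + 0.1), and each library left out in turn. In counts simulated for this comparison, run on 15529 genes, the test called 62% of genes changed 1.2-fold, 90% of those changed 1.5-fold and 86% of those changed 2-fold, with 6 false calls.

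The 9 members and the 11 gene lists were chosen with earlier results of these data known. From each list the text names up to 4 passing genes by adjusted p (2 by abundance where none passed), and for the 3 members that passed the 2 genes most alike; markers and listed genes at or near 0 counts, such as Nphs1 and Wt1, and the other names said so in the text were chosen after their values were seen. Of the 17 other EMT factors, 1 symbol had no match.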

Additional observations from a re-analysis of the deposited data

Results flagged for a closer look

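In 9 of 130 gene and group combinations checked, a single library stood apart from the other 5 of its group by Dixon's criterion (a gap of more than 0.625 of the range), which chance meets in about 1 in 20 groups. None of the 9 members was among them. SPARCoe replicate 5 was that library for 4 genes: Fosl1 (47.8 CPM, others 38.9 to 41.1), Acta2 (57.3 CPM, others 51.5 to 52.3), Pcsk6 (1.42 CPM, others 0.716 to 0.978) and S100pbp (44.2 CPM, others 49.2 to 51.1). Vector replicate 3 was apart for Cdh3 (160.0 CPM, others 149.0 to 149.4). Vector replicate 1 was apart for Aph1a (131.1 CPM, others 140.9 to 146.1). The markers Csf1r in vector replicate 6 (9.84 CPM), Tek in vector replicate 3 (0.486 CPM) and Tek in SPARCoe replicate 1 (0.238 CPM) were also apart.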

How the results depend on the processing

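Of 1367 alternative values of single fold changes, 1313 kept direction and call, 43 lost the call, 6 gained it and 5 changed sign. The changes of sign were all in Zeb1, at log2 fold changes of 0.0029 (a 1 CPM filter in 6 libraries), 0.01 without vector replicate 1, 0.0053 without vector replicate 2, 0.0041 without SPARCoe replicate 1 and 0.0040 without SPARCoe replicate 5 (-0.017 to 0.015 with a library left out). The number of members called higher was 0 in limma on log2(FPKM + 1) fitted to every gene with a value, and 0 to 1 with a library left out (0 without SPARCoe replicate 6). By that limma fit, the calls were 1 among the corepressors, 1 in SNAI1 protein turnover, 1 in cadherin processing and 2 in the S100 family. Among intermediate filament partners averaging 1 FPKM or more, 2 were called in limma on log2(FPKM + 1) and 2 on log2(FPKM + 0.1). Gfap and Synm averaged less than 1 FPKM over all libraries and were not in those fits. With a library left out, the calls ran from 1 (without vector replicate 2) to 2 among the corepressors, 2 (without vector replicate 1) to 5 in SNAI1 protein turnover and 1 (without vector replicate 3) to 4 in cadherin processing, and the log2 cadherin ratio in SPARCoe from 11.82 to 12.73. The cause of the other shifts was not tested.

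Rises made up 51.3% of all calls with edgeR, and in limma on log2(FPKM + 1) 44.8% where the mean reached 1 FPKM and 58.9% where any value was present. Replicate numbers did not pair the libraries: same-numbered libraries' deviations correlated at -0.011 to 0.015, and none of the 6 correlated best with its own number. With the replicate block, 4663 genes passed in place of 4571, and Snai1 (adjusted p = 0.00803), Cdh2 and Vim kept their calls. Depth limits Cdh1, at 0 to 16 counts per library, and S100a4, at 41 to 88.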
